A study of Homo sapiens with 3 samples.

Results

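The nuclear-encoded subunits of oxidative phosphorylation were taken as the 79 genes, of 36601 in the files, whose symbols name a subunit of complexes I to V. Complex I had 37 of them (NDUFA4, which works in complex IV, among them by its symbol), complex II had 4, complex III had 9, complex IV had 10 and complex V had 19. They were followed in induced melanocytes, pigment cells made in culture from human pluripotent stem cells, in 1 droplet RNA library each at days 23, 32 and 44 of induction (D23, D32, D44). Embryoid bodies were grown in a Wnt3a-conditioned melanocyte medium that held SCF, endothelin-3, cholera toxin, TPA, bFGF and dexamethasone, and were then plated on fibronectin. Passaged cells had the medium with FBS and without TPA, and by the protocol's timing D23 precedes passage, whereas D32 and D44 fall at or after it. The labels name both an iPSC origin and the embryonic stem cell line H9, and which one a library came from was not settled. The later pair, D32 and D44, shared an induction and a sequencing run, whereas D23 was induced and sequenced on its own. For D23 the day, any difference in medium, the induction and the batch therefore cannot be told apart. Cells had been cryopreserved before the libraries were made, and nothing in the libraries replicates a day.

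Oxidative phosphorylation is how mitochondria turn nutrients into ATP. Complex I takes electrons from NADH and complex II, which is also the succinate dehydrogenase of the tricarboxylic acid cycle, takes them from succinate. Complex III and complex IV (cytochrome c oxidase) pass them on to oxygen and pump protons, and complex V, the ATP synthase, lets the protons flow back and makes ATP. Most subunits are encoded in the nucleus and imported, a few are encoded in mitochondrial DNA, and complex II is wholly nuclear. In pigment cells the regulator MITF is known to act on mitochondrial biogenesis through PPARGC1A.

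After the cell filter 3795 cells were kept in D23, 6023 in D32 and 5811 in D44, with a median of 12574, 36375 and 42940 UMIs (unique RNA molecules) per cell. Between pairs of libraries the kept cells shared 2 to 15 barcodes. Each cell was gated on 8 markers per class. There were 2415, 5592 and 5774 melanocyte-like cells (DCT, MLANA, PMEL and others) in D23, D32 and D44, 478, 316 and 20 mesenchymal-like cells (COL1A1, LUM and others), and 499, 38 and 0 neural-like cells (ZIC1, NEFM and others). None of the 20 mesenchymal-like cells of D44 or the 38 neural-like cells of D32 lay in a cluster of their class. Classes were also taken from clusters, which leaves out these sums. In melanocyte-like against mesenchymal-like cells, described below, this gave 19 members higher, 16 of them among those called with the gate (7.57% of all genes higher). Against neural-like cells only the D23 sum was then left, so no calls are given. The members there had a median log2 fold change of 0.42, against 0.10 over all genes. Levels are given in CPM, the UMIs of a gene per 1000000 UMIs of all genes. The summed level of the melanocyte markers was 4207 to 12167 CPM in melanocyte-like cells, against 134 to 190.1 in mesenchymal-like cells and 284 to 394 in neural-like cells. The 4 Schwann cell markers summed to 1138 to 1478 CPM in melanocyte-like cells, against 73.5 to 161 in mesenchymal-like cells, and their part in the results was not tested. All intervals are exact 95% intervals on UMIs, binomial (Clopper-Pearson) for shares and for ratios between libraries and Poisson for levels, and cover counting error only.

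The subunit genes made up a larger share of the RNA in melanocyte-like than in mesenchymal-like cells of each library. In shares of total UMIs complex II took another course over the libraries than the rest. All 79 genes together took 4.29% of UMIs in melanocyte-like cells of D23, 3.35% in D32 and 3.26% in D44, against 3.63%, 2.71% and 2.98% in mesenchymal-like cells. Neural-like cells had 4.02% in D23 and 3.56% in D32, so their share was below that of melanocyte-like cells in D23 and above it in D32. Complex I took 1.31%, 1.20% and 1.16% in melanocyte-like cells, against 1.13%, 0.995% and 1.05% in mesenchymal-like cells and 1.30% and 1.28% in neural-like cells.

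Complex II was a small share of the RNA and was higher in the later libraries in each class measured there. Its 4 genes took 0.0301% (0.0295 to 0.0307), 0.0529% (0.0526 to 0.0532) and 0.0476% (0.0473 to 0.0478) of UMIs in melanocyte-like cells of D23, D32 and D44. Mesenchymal-like cells had 0.0180% (0.0169 to 0.0190), 0.0360% (0.0349 to 0.0372) and 0.0361% (0.0318 to 0.0409), and neural-like cells had 0.0180% (0.0168 to 0.0192) and 0.0415% (0.0370 to 0.0463) in D23 and D32. In no library did the interval of melanocyte-like cells reach that of either other class.

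In melanocyte-like and mesenchymal-like cells the other complexes took a smaller share of UMIs in D32 than in D23. Complex III took 0.496%, 0.390% and 0.394% of UMIs in melanocyte-like cells of D23, D32 and D44, complex IV took 0.936%, 0.695% and 0.684%, and complex V took 1.52%, 1.02% and 0.973%. In mesenchymal-like cells complex IV took 0.712%, 0.508% and 0.629% and complex V took 1.31%, 0.847% and 0.880%. The 13 subunits of mitochondrial DNA took 4.33%, 4.97% and 4.75% in melanocyte-like cells, a share that the cell filter itself limits. The plot of summed shares shows these levels side by side. Abundant genes weigh most in such sums. In melanocyte-like cells of D23 and D32, ATP5F1E measured 3953 and 1401 CPM, ATP5MD 1691 and 485 and ATP5ME 1200.1 and 337. Over genes at 10 CPM or more, the median log2 ratio of D32 to D23 there was −0.05 in complexes I and V. It was −0.33 in complex III and −0.64 in complex IV, against −0.07 over all genes. The shares are of total UMIs and were not rescaled. With TMM scaling the median of the members was 0.32, against 0.35 over all genes, and the medians by complex were not taken.

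**Figure D1:**
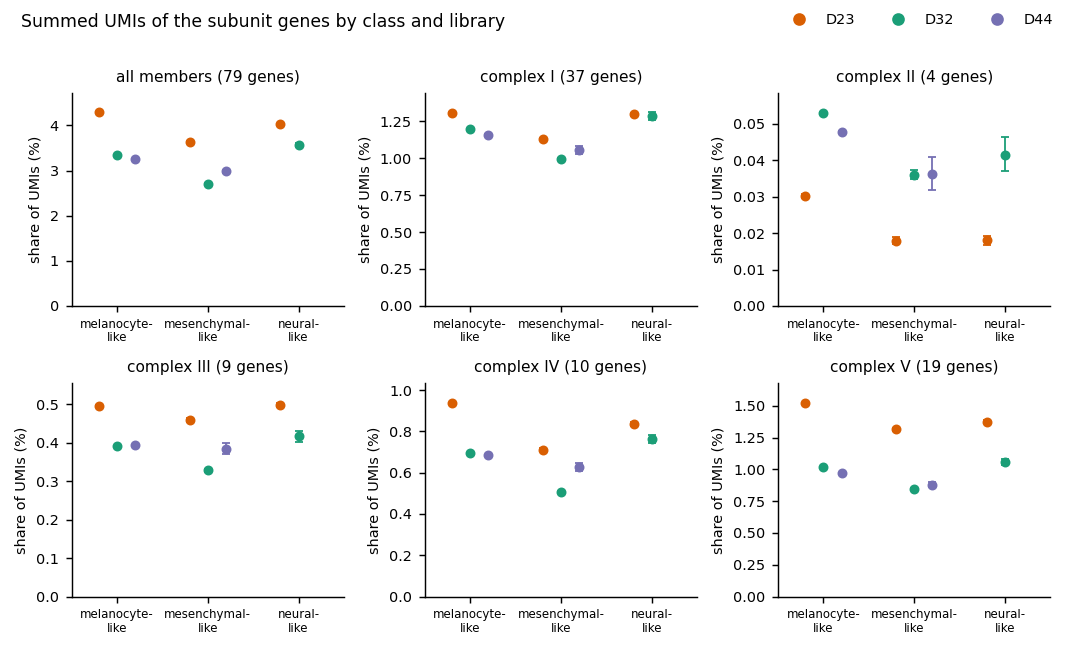
Summed UMIs of the subunit genes as a percent of all UMIs (y axis, linear from 0) in each cell class (x axis) and library (colour), for all 79 genes and by complex. Points are 1 sum of cells each and bars are exact binomial 95% intervals. Complex II is the panel in which D23 lies lowest, at 0.0301% in melanocyte-like cells against 0.0529% in D32, while the other complexes lie highest in D23.

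Single cells followed the sums. The median melanocyte-like cell gave 4.31%, 3.32% and 3.24% of its UMIs to the 79 genes in D23, D32 and D44, against 3.61%, 2.66% and 2.83% in mesenchymal-like cells and 3.93% and 3.44% in neural-like cells of D23 and D32. It had a UMI of 71, 77 and 77 of the 79 genes, at the depths given above.

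To ask whether the subunit genes differ between the cell classes, UMIs were summed per library and class and tested with edgeR's quasi-likelihood test, with the library as a block. In melanocyte-like against mesenchymal-like cells 19 of the 79 genes were called higher and 0 lower at an adjusted p under 0.05, where 20.9% of all 15245 genes tested were called, 8.84% higher and 12.1% lower. At an unadjusted p under 0.05 there were 41. The fold change was above 0 for 75 of the 79 genes, with a median of 0.37 on the log2 scale against 0.08 over all genes tested. For neither of these counts was the share of all genes taken. The level was higher in melanocyte-like cells of all 3 libraries for 56 of the 79 (28.2% of all genes) and lower in all 3 for 3 (24%). By complex, 6 of 37 genes were called higher in complex I (median log2 fold change 0.34), 2 of 4 in complex II (0.59), 1 of 9 in complex III (0.28), 5 of 10 in complex IV (0.43) and 5 of 19 in complex V (0.38).

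In complex II, SDHB, the iron-sulfur subunit that hands electrons from the flavoprotein to the membrane anchor, had the largest fold change of the 79. SDHB measured 83.4, 131 and 131 CPM in melanocyte-like cells of D23, D32 and D44, against 47.1, 81.1 and 64.3 in mesenchymal-like cells. The lowest melanocyte-like level lay above the highest mesenchymal-like one, and the log2 fold change was 0.91 ± 0.17 (SE, adjusted p = 0.00803). SDHC, an anchor subunit in the inner membrane, measured 101, 201 and 161 against 64.5, 129.9 and 123 CPM (0.64 ± 0.14, adjusted p = 0.0156). SDHA, the flavoprotein that oxidizes succinate, measured 46.1, 74.5 and 85.4 against 28.3, 51.2 and 80.4, and its log2 fold change of 0.54 ± 0.16 did not pass the test (adjusted p = 0.0518). SDHA has near-identical pseudogene copies that can share its reads. SDHD, the other anchor subunit, was at 71.1, 123 and 98.0 against 39.6, 98.1 and 93.6 CPM (0.50 ± 0.17, adjusted p = 0.0721). All 4 genes were higher in melanocyte-like cells of each library, with the smallest ratios of SDHA, SDHC and SDHD in D44, where the mesenchymal-like sum held 20 cells.

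In complex I the called genes included core subunits that carry electrons. NDUFS7, an iron-sulfur subunit next to the quinone site, measured 159, 223 and 245 CPM in melanocyte-like cells, against 108, 136 and 194 in mesenchymal-like cells (0.62 ± 0.15, adjusted p = 0.0194). Of the pair that binds NADH, NDUFV2 was called (0.49, adjusted p = 0.0414), with 312, 401 and 368 against 229.9, 289 and 299.8 CPM, and NDUFV1 narrowly missed the threshold (0.57, adjusted p = 0.0505). NDUFS1, the largest iron-sulfur subunit, was at 69.2, 66.9 and 65.3 against 51.9, 47.6 and 57.0 (adjusted p = 0.0754). NDUFB5, NDUFB9 and NDUFS3 were also called. NDUFS8, an iron-sulfur core subunit, was lower in melanocyte-like cells in 3 of 3 libraries, at 233, 272 and 297 against 236, 285 and 379 CPM (−0.06, adjusted p = 0.818), and NDUFA12 also had a fold change below 0 (−0.02).

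In complex III the only gene called was UQCRFS1, the Rieske iron-sulfur protein, at 289, 394 and 330.1 CPM against 192, 264 and 269 (0.58 ± 0.14, adjusted p = 0.0208). UQCRH, the hinge subunit, was at 0.48 (adjusted p = 0.0548), and the core proteins UQCRC1 and UQCRC2 were at 0.28 and 0.30 (adjusted p = 0.246 and 0.214). UQCRB was at −0.01. UQCRHL, a retrogene copy of UQCRH whose reads can be mistaken for it, had 5.28, 2.33 and 1.21 CPM in melanocyte-like cells, against 4.82 and 1.43 in mesenchymal-like cells of D23 and D32 and 0 UMIs in D44, which allows a level of up to 4.39 CPM (3 UMIs).

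Of the 10 genes of complex IV, 5 were called. COX5A, a matrix-side subunit, measured 367, 502 and 499 CPM in melanocyte-like cells, against 211, 306 and 330.5 in mesenchymal-like cells (0.79 ± 0.14, adjusted p = 0.00514). The lowest melanocyte-like level lay above the highest mesenchymal-like one. COX7B, one of the small membrane subunits, measured 1131, 679 and 593 against 755, 396 and 445 (0.68 ± 0.14, adjusted p = 0.0125). COX7A2 (0.51), COX4I1, the regulatory subunit that binds ATP (0.49), and COX6B1 (0.47) were also called. COX4I1 measured 855, 1160.1 and 1132 CPM against 609.6, 783 and 1027. COX5B, COX6C and COX8A did not pass, at 0.32, 0.24 and 0.39 (adjusted p = 0.22, 0.273 and 0.0752).

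In complex V, called genes lay in both the catalytic head and the stalks. ATP5F1B, the catalytic beta subunit, measured 341, 528 and 609.7 CPM in melanocyte-like cells, against 220.0, 373 and 510.4 in mesenchymal-like cells (0.55, adjusted p = 0.0345). ATP5F1C, the rotating gamma subunit, measured 247, 257 and 202 against 163, 178 and 151 (0.60 ± 0.15, adjusted p = 0.0231), with no overlap between the classes. ATP5PB, the stator subunit that holds the head still, was at 143, 181 and 186 against 104, 118 and 148 (0.56 ± 0.16, adjusted p = 0.0442). ATP5PF, another stator subunit, was called at 0.48 and ATP5MC1 at 0.49. ATP5MC1, ATP5MC2 and ATP5MC3 encode the same mature subunit c of the rotor ring, and the other members of this trio, ATP5MC2 and ATP5MC3, were at 0.39 and 0.44 (adjusted p = 0.113 and 0.0552). ATP5F1A (0.22), ATP5F1D (0.44) and ATP5F1E (0.11), the alpha, delta and epsilon subunits, did not pass.

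ATP5IF1, which is not a subunit but the inhibitor that blocks the ATP synthase from running backwards, had the lowest fold change of the 79. It measured 427, 353 and 282 CPM in melanocyte-like cells of D23, D32 and D44, against 611, 399 and 411 in mesenchymal-like cells. Its level was lower in 3 of 3 libraries, but the log2 fold change of −0.32 ± 0.15 did not pass the test (adjusted p = 0.169). The 19 calls rested on the pairing of classes within libraries. With no replicate block 0 were called, where 4.11% of all genes were called higher and 8.68% lower. Without D32 only SDHB was called, where 4.25% of all genes were called higher.

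**Figure D2:**
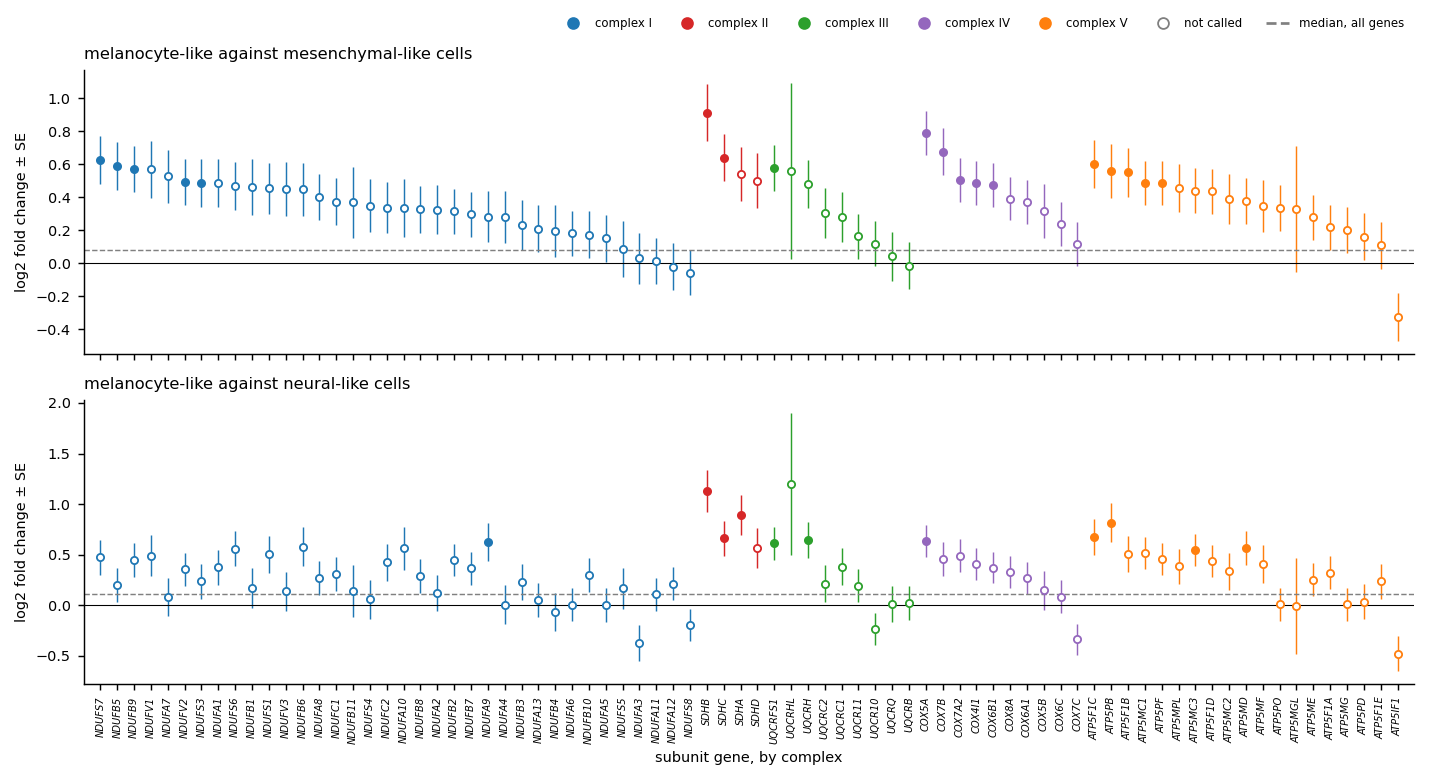
Log2 fold change of 78 of the 79 genes (x axis, by complex) in melanocyte-like against mesenchymal-like cells (upper panel) and against neural-like cells (lower panel), with bars of 1 SE. Filled points passed an adjusted p under 0.05 and the dashed line is the median of all genes. The complex II points (0.50 to 0.91 in the upper panel) lie above the line, and ATP5IF1 lies lowest in both panels, at −0.32 and −0.48.

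In melanocyte-like against neural-like cells, a comparison with the same melanocyte-like sums, 11 of the 79 genes were called higher and 0 lower, where 23.3% of all genes were called, 10.9% higher and 12.4% lower. At an unadjusted p under 0.05 there were 31, again without a share of all genes. The median log2 fold change was 0.32, against 0.12 over all genes. Neural-like sums existed for D23 and D32 only, and this comparison turned on the scaling. With total UMIs in place of TMM the median of all genes moved to −0.11. Then 2 members were called higher (SDHB and ATP5PB) and 4 lower (ATP5IF1, NDUFA3, COX7C and UQCR10). Of all genes 7.39% were called higher and 14.7% lower with that scaling. The level in CPM was higher in melanocyte-like cells of both libraries for 32 of the 79 genes (32.5% of all genes) and lower in both for 21 (41% of all genes).

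Complex II led this comparison, with 3 of its 4 genes called and a median of 0.78. SDHB measured 83.4 and 131 CPM in melanocyte-like cells of D23 and D32, against 43.1 and 80.3 in neural-like cells (1.13 ± 0.21, adjusted p = 0.00779). SDHA measured 46.1 and 74.5 against 23.0 and 57.0 (0.89 ± 0.20, adjusted p = 0.0168), and SDHC measured 101 and 201 against 67.2 and 166 (0.66 ± 0.17, adjusted p = 0.0274). SDHD, at 71.1 and 123 against 46.8 and 111, did not pass (0.56, adjusted p = 0.0774). All 4 levels were higher in melanocyte-like cells of both libraries, and the fold changes of all 4 stayed above 0 with total UMIs, at 0.31 or more over the alternatives tried.

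Outside complex II the calls were spread over the chain. ATP5PB, the stator subunit, was at 143 and 181 CPM against 102 and 111 in neural-like cells (0.82 ± 0.20, adjusted p = 0.021), and ATP5F1C was at 0.68 (adjusted p = 0.0284). UQCRH was called at 0.64 and UQCRFS1 at 0.61 in complex III, COX5A at 0.64 in complex IV, and NDUFA9, a complex I subunit near the quinone site, at 0.63. ATP5MD, a small membrane subunit of complex V, and ATP5MC3 were called at 0.56 and 0.55. The complex I core genes NDUFS1, NDUFS7, NDUFV1 and NDUFV2 lay between 0.35 and 0.50 and none was called.

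The members with fold changes below 0 were ATP5IF1, NDUFA3, COX7C, UQCR10, NDUFS8, NDUFB4 and ATP5MGL. ATP5IF1 measured 427 and 353 CPM in melanocyte-like cells, against 669.5 and 612 in neural-like cells (−0.48 ± 0.17, adjusted p = 0.0829). COX7C, a small subunit of complex IV, measured 1371 and 755 against 1777 and 1296 (−0.33, adjusted p = 0.161). NDUFA3, an accessory subunit of complex I, measured 391 and 112 against 522 and 205 (−0.37, adjusted p = 0.177). None passed with TMM scaling, while all 3 were called lower with total UMIs. Leaving out D32, or the sums of under 50 cells with its 38 neural-like cells, keeps only the D23 neural-like sum. No calls are given for these fits. Their median log2 fold changes of the members were 0.26 and 0.31, against 0.05 and 0.01 over all genes.

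**Figure D3:**
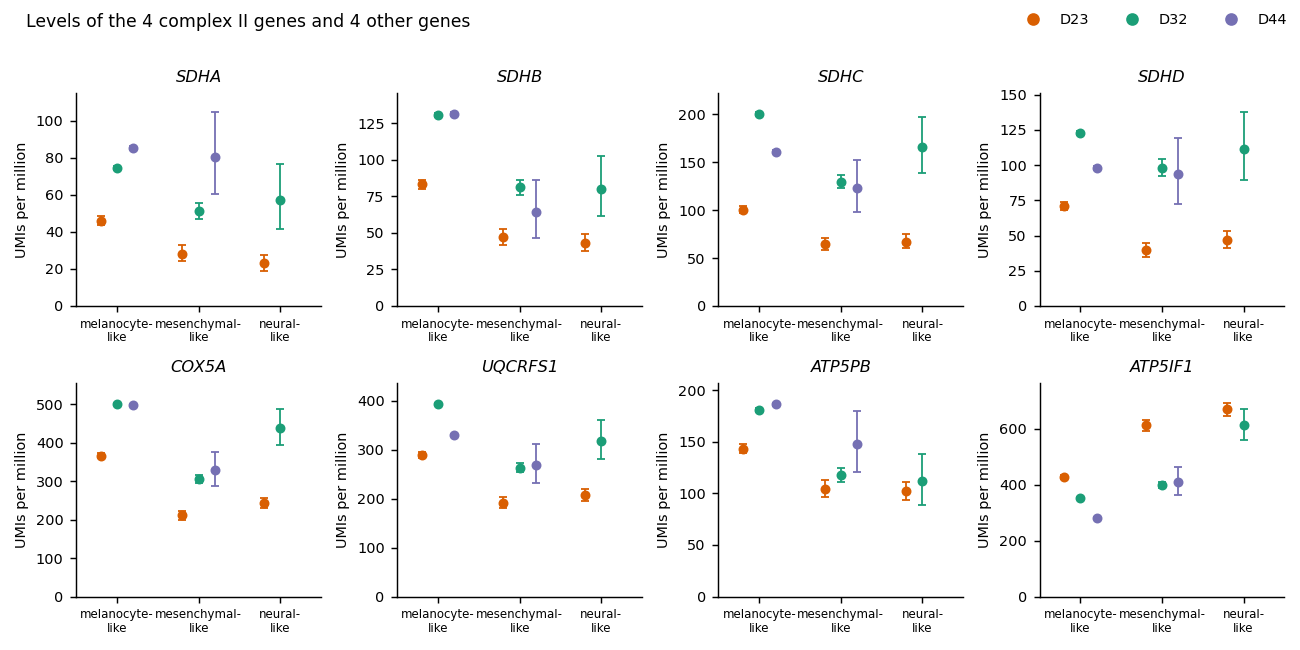
Levels of the 4 complex II genes and of COX5A, UQCRFS1, ATP5PB and ATP5IF1 in CPM (y axes, linear from 0) by cell class (x axis) and library (colour), with exact Poisson 95% intervals. Each point is 1 sum of cells. SDHB is at 83.4, 131 and 131 in melanocyte-like cells and at 47.1, 81.1 and 64.3 in mesenchymal-like cells, and ATP5IF1 has the opposite order of classes.

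Between mesenchymal-like and neural-like cells 0 of the 79 genes were called by edgeR, where 4.74% of all genes were called, 2.31% higher and 2.43% lower. At an unadjusted p under 0.05 there were 2, COX7C (−0.45) and NDUFA7 (−0.44), without a share of all genes. DESeq2 called 6 lower and 0 higher, where it called 4.72% of all genes lower and 4.26% higher. The median log2 fold change was −0.06 against 0.04 over all genes, and the level was lower in mesenchymal-like cells of both libraries for 60 of the 79 genes (38.4% of all genes) and higher in both for 4 (24.1%). Fold changes of the complex II genes were 0.35 for SDHA, 0.22 for SDHB, 0.02 for SDHC and 0.06 for SDHD. Those of the complex I core genes lay from −0.15 for NDUFS7 to 0.05 for NDUFS1, and those of COX5A and ATP5IF1 were both −0.15. None of these passed the test. In simulated data with the same spread for all genes it found 5% of genes changed by a log2 of 1. Its rate for the members was not measured.

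To show what lies upstream of the genes that carried the class differences, promoters were read from RefSeq on GRCh38.p14. Of the 79 genes, 64 had an entry, with 76 promoter windows of 300 bases, from 250 before to 50 after the start. SDHC was among those without one. Motifs were searched on both strands as letters only. The NRF1-type motif (GCGCA, any 1 base, then GCGC) was in 16 of the 76 windows (21.1%, against 5.78% of all 35116 promoters), the ETS-type motif (CCGGAAG) in 22 (28.9%, against 10.3%) and the YY1-type motif (GCCATNTT) in 27 (35.5%, against 6.58%). NRF1, the ETS factor GABP and YY1 are known regulators of nuclear genes for mitochondria. The M-box TCATGTG, a motif of MITF, was in 0 windows (2.92% of all promoters) and the E-box CACGTG in 7 (9.21%, against 7.26%). The median GC content was 60.2% in the members' windows and 58.7% in all. By complex, the NRF1-type motif was in 6 of 31 genes of complex I, 2 of 3 of complex II, 4 of 7 of complex III, 0 of 9 of complex IV and 4 of 14 of complex V. A match is no more than these letters.

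The 100 bases before the start of 6 of these genes are printed 5′ to 3′ on the gene's own strand, with NRF1-type matches in capitals. They are 5 genes called higher in melanocyte-like cells in both class comparisons, and ATP5IF1, the gene with the lowest fold change. SDHB lies on the minus strand at chr1:17054033-17054132, ATP5PB on the plus strand at chr1:111449364-111449463, ATP5F1C on the plus strand at chr10:7788077-7788176, COX5A on the minus strand at chr15:74938074-74938173, UQCRFS1 on the minus strand at chr19:29213152-29213251 and ATP5IF1 on the plus strand at chr1:28236024-28236123.
SDHB: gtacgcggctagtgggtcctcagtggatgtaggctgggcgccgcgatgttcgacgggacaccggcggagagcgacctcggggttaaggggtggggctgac
ATP5PB: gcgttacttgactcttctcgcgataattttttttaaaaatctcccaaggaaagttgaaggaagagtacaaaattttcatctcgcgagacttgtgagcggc
ATP5F1C: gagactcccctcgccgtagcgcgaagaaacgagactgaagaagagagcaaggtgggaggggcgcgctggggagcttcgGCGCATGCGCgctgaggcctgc
COX5A: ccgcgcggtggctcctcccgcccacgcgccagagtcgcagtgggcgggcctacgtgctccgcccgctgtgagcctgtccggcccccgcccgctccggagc
UQCRFS1: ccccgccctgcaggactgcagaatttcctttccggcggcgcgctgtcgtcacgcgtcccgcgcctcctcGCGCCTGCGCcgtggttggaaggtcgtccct
ATP5IF1: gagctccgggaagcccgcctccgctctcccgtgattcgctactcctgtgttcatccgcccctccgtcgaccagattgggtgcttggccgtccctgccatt
In these 100 bases ATP5F1C and UQCRFS1 hold an NRF1-type match. In the wider window SDHB has an ETS-type and a YY1-type match, ATP5PB has a YY1-type match and an E-box, and UQCRFS1 has a YY1-type match, all beyond the printed bases. COX5A and ATP5IF1 have none of the motifs searched in the 300 bases.

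Other genes of the pathway, in lists outside the 79, were set beside them. Of all genes tested, 8.84% were called higher and 12.1% lower in melanocyte-like against mesenchymal-like cells. Against neural-like cells these shares were 10.9% and 12.4%. The assembly factors were called higher at close to these shares, and the other lists are short. In melanocyte-like against mesenchymal-like cells 2 of 13 mitochondrially encoded subunits were called higher and 0 lower (median 0.44), among them MT-ND1 (0.56, adjusted p = 0.036). Of 42 assembly factors 3 were called higher, the copper chaperone COX17 (1.02), the complex I factor ECSIT (0.91) and the cytochrome c oxidase factor COA6 (0.83), and 0 lower. Of 13 tricarboxylic acid cycle genes 3 were higher and 0 lower, IDH3A (0.78), MDH2 (0.74) and SUCLG1 (0.60). Of 15 membrane and import genes 2 were higher, TOMM7 (0.89) and the ATP/ADP carrier SLC25A5 (0.86), and 0 lower. Of 3 isoforms tested NDUFAB1, the acyl carrier protein of complex I, was higher (0.61). Against neural-like cells 0 of the mitochondrially encoded subunits and isoforms, 4 of the assembly factors, 5 of the tricarboxylic acid cycle genes and 4 of the membrane and import genes were called higher, with IDH3A (1.21), MDH2 (0.97) and citrate synthase CS (0.78) leading the cycle genes, and 0 of these lists lower.

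The regulators of mitochondrial biogenesis moved apart from each other. PPARGC1A, a coactivator that drives mitochondrial genes in other tissues, measured 1.3, 0.5 and 0.6 CPM in melanocyte-like cells, against 8.2, 2.1 and 14.6 in mesenchymal-like cells (−3.00, adjusted p = 0.015) and 8.5 and 20.7 in neural-like cells of D23 and D32 (−4.10, adjusted p = 0.008). Its levels were lower in melanocyte-like cells of each library. Its relative PPARGC1B (1.59, adjusted p = 0.044) and the nuclear receptor ESRRA (1.00, adjusted p = 0.036) were higher against mesenchymal-like cells. PPARGC1B measured 14.6, 7.49 and 9.54 CPM in melanocyte-like cells against 6.53, 1.07 and 7.31, higher in each library, while ESRRA measured 46.9, 39.2 and 42.7 against 18.2, 15.4 and 48.3, higher in D23 and D32 and lower in D44. Neither PPARGC1B nor ESRRA was called against neural-like cells (adjusted p = 0.079 and 0.117). The mesenchymal-like sum of D44 held 683845 UMIs of 20 cells and the neural-like sum of D32 771724 of 38. Low levels of PPARGC1A and PPARGC1B in these sums rest on few UMIs, and no intervals are given for the regulators. PPARGC1A, PPARGC1B and ESRRA were the 3 calls among the 12 regulators against mesenchymal-like cells.

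To ask whether dividing cells differ, mitotic cells (606, 1917 and 2175 in D23, D32 and D44) were set against other melanocyte-like cells (1809, 3675 and 3599). The differences were small. Of the 79 genes 6 were called higher and 25 lower, where 45.2% of all 17212 genes tested were called, 21.3% higher and 23.8% lower. Log2 fold changes ran from −0.19 to 0.17, with a median of −0.04 against −0.03 over all genes. The level was higher in mitotic cells of all 3 libraries for 15 of the 79 (28.5% of all genes) and lower in all 3 for 43 (36.3%). By complex the calls were 1 higher and 11 lower in complex I, 2 and 1 in complex II, 1 and 3 in complex III, 0 and 4 in complex IV, and 2 and 6 in complex V.

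NDUFA6, an accessory subunit of complex I, was the highest, at 254, 230.0 and 208 CPM in mitotic cells against 228, 204 and 187 in other cells (0.17 ± 0.03, adjusted p = 0.00127). SDHA (0.13 ± 0.04) of complex II was called higher, at 47.8, 77.1 and 91.1 CPM in mitotic cells against 45.4, 72.6 and 80.9. SDHB (0.11 ± 0.04) was called higher too, at 91.5, 139 and 132 CPM against 80.0, 125 and 131, which is level in D44. The call of SDHB was lost in 7 of 10 alternatives, leaving out D23 or D32 among them, and that of SDHA in 4 of 10, leaving out D32 or D44 among them. SDHC was called lower (−0.13, adjusted p = 0.00734), at 93.9, 189 and 153 against 104, 209 and 168, and SDHD was not called (0.09). The call of SDHC was lost in 1 of 10, without the block. Of the subunit c genes ATP5MC1 was higher (0.13 ± 0.04), at 374, 364 and 325 against 357, 322 and 299.9, and ATP5MC2 was lower, at 757, 764 and 747 against 845, 835 and 819, while ATP5MC3 was at −0.01. The call of ATP5MC1 was lost without D32. UQCRFS1 (0.12 ± 0.03) and ATP5PB (0.11) were also higher, and the call of ATP5PB was lost in 3 of 10 alternatives, leaving out D32 among them.

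The lowest fold changes were those of NDUFB5 (−0.19 ± 0.04, adjusted p = 0.000764), ATP5F1E (−0.19, adjusted p = 0.000526), NDUFA3 (−0.18), NDUFA1 (−0.18) and NDUFA13 (−0.17). ATP5F1E measured 3624, 1299 and 1328 CPM in mitotic cells against 4093, 1472 and 1543 in other cells. It was lower in each library, as were the 3 levels of NDUFB5, at 138, 242 and 212 against 164, 272 and 242. UQCRC2 was called lower, as were COX5B, COX6C, ATP5F1A and ATP5F1C. Of the mitochondrially encoded subunits 10 of 13 were called lower and 0 higher, while the 42 assembly factors split into 12 higher and 10 lower. The calls rested on the block here too, as 0 were called without it, where 1.53% of all genes were called higher and 0.0174% lower. The median melanocyte-like cell gave 4.12%, 3.27% and 3.16% of its UMIs to the 79 genes when mitotic, against 4.37%, 3.35% and 3.30% otherwise.

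**Figure D4:**
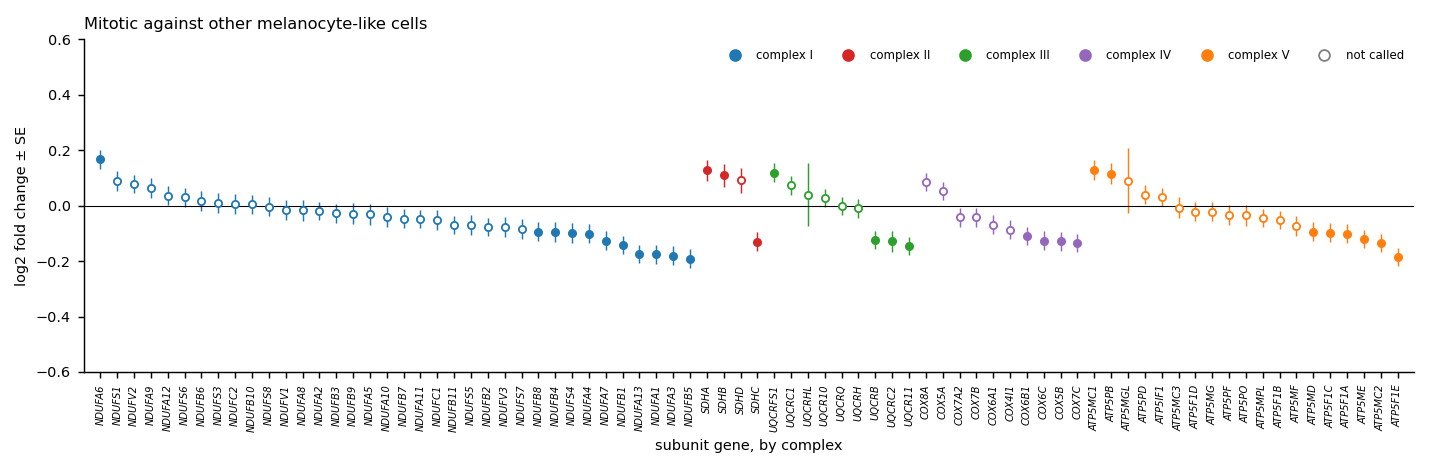
Log2 fold change of 78 of the 79 genes (x axis, by complex) in mitotic against other melanocyte-like cells (y axis), with bars of 1 SE. Filled points passed an adjusted p under 0.05. The points lie close to 0, from −0.19 for NDUFB5 and ATP5F1E to 0.17 for NDUFA6, and SDHC lies below 0 (−0.13).

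Libraries were compared within melanocyte-like cells by their levels, with no test since each day had 1 library. Between D44 and D32, which share induction and batch, 0 of 77 genes measured at 10 CPM or more were past a log2 ratio of 0.5, where 6.56% of all genes were, 2.98% higher and 3.58% lower. Ratios ran from −0.35 to 0.36, with a median of −0.04 against −0.02 over all genes. UQCRC1, a core protein of complex III, had the highest (132 CPM in D44 against 103 in D32), and ATP5F1C the lowest (202 in D44 against 257 in D32). Within complex II the genes parted, with ratios of 0.20 for SDHA and 0.01 for SDHB, and of −0.32 for both anchor genes SDHC and SDHD.

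Between D32 and D23, 15 of the 77 genes were higher and 24 lower past the same ratio, where 44.7% of all genes were past it, 19.3% higher and 25.4% lower. The median was −0.07 for the 77 genes and −0.07 for all genes. The scaling set the balance: with TMM factors the median of all genes was 0.35 and that of the members 0.32, and 30 were higher and 8 lower.

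Complex II was the only complex with all of its genes past the ratio in 1 direction, 4 higher and 0 lower. SDHC had a log2 ratio of 0.99 (0.94 to 1.05), SDHD of 0.79 (0.73 to 0.85), SDHA of 0.69 (0.62 to 0.77) and SDHB of 0.65 (0.59 to 0.71), and their sum of 0.81. High ratios elsewhere were those of UQCRC2 (1.03), NDUFV1 (0.89) and NDUFA9 (0.81). UQCRC2 measured 156 CPM in D32 against 76.4 in D23. In complex I 8 genes were higher and 9 lower, in complex III 1 and 4, in complex IV 0 and 6, and in complex V 2 and 5.

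The lower end was held by small subunits. ATP5ME measured 337 CPM in D32 against 1200.1 in D23 (−1.83), NDUFA3 112 against 391 (−1.81), ATP5MD 485 against 1691 (−1.80), ATP5F1E 1401 against 3953 (−1.50) and NDUFB1 248 against 587 (−1.24). In complex IV COX6C was at −1.02, COX7A2 at −0.63 and COX8A at −0.64, while COX5A (0.45) and COX4I1 (0.44) were on the other side of 0. In complex V ATP5F1B was higher (0.63), and ATP5MC1, ATP5MC2 and ATP5MC3 lay between −0.09 and 0.20. Apart from complex II, subunits of 1 complex did not share a direction between these libraries. Of the tricarboxylic acid cycle genes, to which complex II also belongs, 6 were higher and 1 lower, and of the mitochondrially encoded subunits 4 were higher and 4 lower.

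Ratios were also set against transcript length. The canonical transcripts (GENCODE 44) have a median of 696 nt in complex I, 1323.5 in complex II, 1573 in complex III, 659.5 in complex IV and 756 in complex V. These are annotated lengths, not those of the RNAs counted. Of the 35 members under 700 nt, 2 were higher and 14 lower (40.0%, median −0.27), against 5.58% higher and 37.2% lower of all 269 short transcripts (median −0.29), so the short members lay near the background. Of the 42 longer members 13 were higher and 10 lower (31.0% and 23.8%, median 0.24), against 1671 higher (19.7%) and 2120 lower of all 8479 longer transcripts (median −0.07). Spearman's rho of ratio with length was 0.39 across the members and −0.42 across all genes, a description over genes that share both libraries. Between D44 and D32 the medians were −0.03 for the short and −0.05 for the longer members. The part of length, and of the difference in depth between D23 and D32, was not tested.

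**Figure D5:**
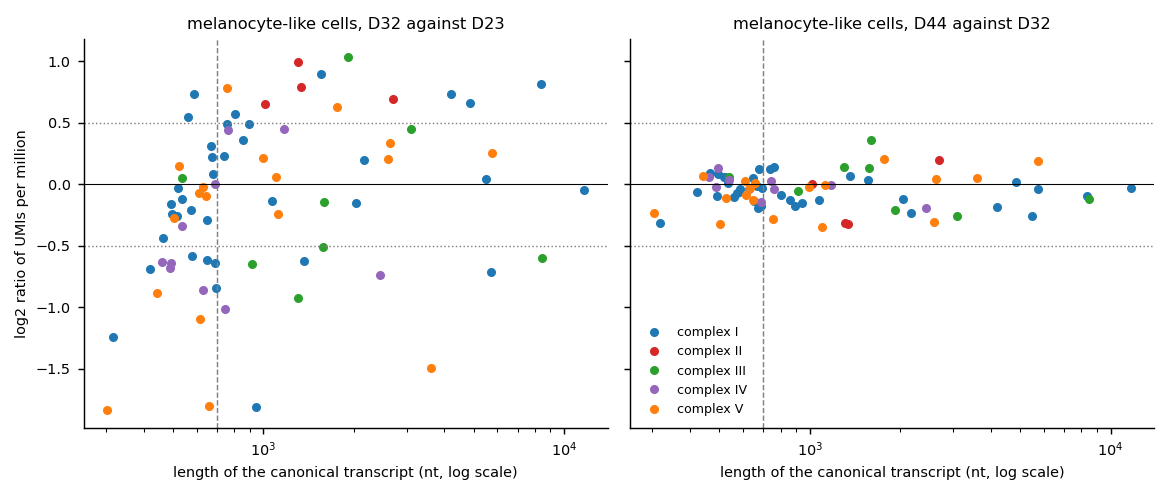
Log2 ratio of CPM (y axis) in melanocyte-like cells for D32 against D23 (left) and D44 against D32 (right), by length of the canonical transcript in nt (x axis, log scale) and complex (colour), for 76 of the 77 genes. Dotted lines mark ratios of 0.5 in either direction and the dashed line 700 nt. On the left the ratios drawn span −1.83 to 1.03 with the 4 complex II genes all above 0.5, and on the right all lie between −0.35 and 0.36.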

How the data were processed

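UMIs per gene and barcode were counted by the authors with Cell Ranger 6.1.2 on GRCh38 (per the labels' processing notes) and deposited as raw counts, 1 matrix per library, for 22522 called barcodes; the annotation release was not given in the sources used here. The members, lists and comparisons were chosen with earlier results of these data known.

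The study's cell filter was applied: over 1000 and under 7000 genes and under 50000 UMIs for D23, over 3000 and under 9000 genes and under 100000 UMIs for D32 and D44, over 500 UMIs, and under 10% mitochondrial UMIs. This left 15629 cells. Called doublets (Scrublet, 0.8% per 1000 barcodes) were kept. Each cell was given the class whose 8 markers had the highest mean log count per 10000 UMIs, where that list led the next by 0.25 and 3 of its markers were detected. Other cells stayed ungated (403, 77 and 17 in D23, D32 and D44). Mitotic cells had a mean of at least 0.5 over 12 markers. Both scoring limits were set after seeing the data. Cells within 0.1 of the class margin numbered 314, 65 and 14, and of the mitotic limit 177, 513 and 457.

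UMIs were summed per library and class (8 sums of at least 10 cells; 6 mitotic sums). Sums were tested with edgeR 4.0.16 (TMM, filterByExpr, quasi-likelihood, library as block, Benjamini-Hochberg over all genes). The libraries pair the sums, since sums of 1 library deviated together (correlations of 0.195 to 0.602). The scripts were tested on simulated data with the same spread for all genes, so the rates found are not those of the members. A log2 change of 1 was found in 19% of changed genes for melanocyte-like against mesenchymal-like cells. It was found in 7% for melanocyte-like and 5% for mesenchymal-like against neural-like cells, and in 85% for mitotic against other cells. A gene that was not called may therefore still differ between classes. Libraries are single, so p-values measure only the spread of class differences over 3 libraries, or 2 where neural-like cells are compared. The class comparisons share the spread estimated from all 8 sums. Ratios between libraries carry no test.

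Named genes were a fixed core set of catalytic and structural subunits, the 5 largest changes called in each direction and members outside the direction of most others. Core genes that were not called are given by value or range. The values of 1 member are not reported here, though it stays in all counts. Alternatives were other scaling, DESeq2 1.42.0, no count filter, no block, each library left out, doublets removed, cells thinned to 5000 UMIs, a free-RNA correction, cluster-based classes and a stricter gate; leaving out the mitochondrial genome or sums of under 50 cells was added after seeing the data. R 4.3.3, Python 3.11.15 and scanpy 1.11.5 were used.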

Additional observations from a re-analysis of the deposited data

Results flagged for a closer look

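Some members had class ratios that ran in opposite directions in 2 libraries, with a 95% counting interval that left out 0 in both. The interval of a remaining library could include 0. The difference between the libraries was not tested, since each library gives 1 ratio. In melanocyte-like against mesenchymal-like cells there were 9 such genes: COX5B, UQCRQ, NDUFA4, UQCRB, NDUFA12, NDUFB10, NDUFA3, ATP5F1E and NDUFB11. NDUFB11 had log2 ratios of −0.21 in D23, 0.60 in D32 and 0.42 in D44, and COX5B had 0.36, 0.57 and −0.23. In melanocyte-like against neural-like cells there were 5, among them COX5B (0.21 in D23 and −0.23 in D32) and UQCRC2 (0.20 and −0.32). In mesenchymal-like against neural-like cells there were 3, among them ATP5MD (0.19 and −0.32), and in mitotic against other melanocyte-like cells there were 3, ATP5MC3, NDUFA8 and NDUFC2. None of the complex II genes was among them, but there are only 4 of these. The share of all genes with such opposite ratios was not taken.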

How the results depend on the processing

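The counts of members called moved with several choices. In melanocyte-like against mesenchymal-like cells the 19 calls became 36 higher and 1 lower (ATP5IF1) with DESeq2 and 9 with cells thinned to 5000 UMIs. There were 0 with no replicate block (library pairing left out) and 1 to 7 when 1 library was left out, of which the 1 without D32 was SDHB. Of all genes, DESeq2 called 10.4% higher and 15.5% lower, and thinning 7.97% and 10.4%. With no block these shares were 4.11% and 8.68%. With 1 library left out they were 4.25% to 8.47% higher and 7.20% to 11.2% lower. In melanocyte-like against neural-like cells the 11 higher and 0 lower became 2 and 4 with total UMIs and 16 and 5 with DESeq2. There were 3 higher when thinned, 0 with no replicate block and 8 without D44. Of all genes, total UMIs called 7.39% higher and 14.7% lower, and DESeq2 10.9% and 16.3%. The shares higher were 9.13% when thinned, 5.44% with no block and 10.8% without D44. Leaving out D23, D32 or sums of under 50 cells left 1 neural-like sum, so no counts are given. In mesenchymal-like against neural-like cells DESeq2 gave 6 lower, where it called 4.72% of all genes lower. In mitotic against other melanocyte-like cells the 6 higher became 10 without called doublets (22.0% of all genes higher) and 0 with no replicate block (1.53%). They became 2 to 6 when 1 library was left out (15.4% to 22.1%). The 25 lower became 0 with no replicate block (0.0174% of all genes lower) and 11 to 24 when 1 library was left out (15.7% to 22.8%). Between D32 and D23 TMM scaling gave 30 higher and 8 lower, with a median of 0.32 against 0.35 over all genes. The share of all genes past the ratio was not taken there. The causes were not tested. SDHB kept its direction under all 14 alternatives in both melanocyte-like comparisons, from 0.75 to 1.09 against mesenchymal-like and from 0.87 to 1.46 against neural-like cells, and lost its call with no replicate block and, against neural-like cells, without D32. None of the named genes reversed direction past a threshold. The balance of members higher and lower did turn, between D32 and D23 with TMM scaling and against neural-like cells with total UMIs. The 20 mesenchymal-like cells of D44 and the 38 neural-like cells of D32 limit the precision of those sums, and none of them lay in a cluster of their class.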

Other observations

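The cell filter removed barcodes of 2 kinds. Barcodes with a mitochondrial share of 10% or more numbered 1631 in D23, 696 in D32 and 556 in D44, with a median of 1275, 2556 and 1880.5 UMIs and a median mitochondrial share of 39.8%, 49.5% and 47.1%. Of the UMIs outside the mitochondrial genome, the 79 genes took 2.61% in these barcodes of D23, 3.16% in D32 and 3.43% in D44, against 4.33%, 3.49% and 3.42% in kept cells. Their share was thus below that of kept cells in D23 and D32 and close to it in D44. The complex II share was 0.0251%, 0.0493% and 0.0478%, against 0.0276%, 0.0546% and 0.0499% in kept cells, so that D23 was lowest among removed barcodes as well. Barcodes outside the limits of genes or UMIs alone numbered 158, 2203 and 1634, with a median of 770.5, 1065 and 884.5 UMIs. There the 79 genes took 2.503%, 4.21% and 3.64%, below kept cells in D23 and above them in D32 and D44, and complex II took 0.0206%, 0.0519% and 0.0489%.

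Across melanocyte-like cells the share of the 79 genes was only weakly related to other measures, given as descriptions over cells of 1 library. Spearman's rho with the share of mitochondrially encoded subunits was −0.22 in D23, 0.07 in D32 and 0.08 in D44. With the mean of the 8 melanocyte markers it was 0.01, 0.23 and 0.36, with the mean of the 12 mitotic markers −0.19, −0.12 and −0.27, and with the UMIs of the cell −0.04, 0.26 and 0.06.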
